A study of Mus musculus with 24 samples.

Results

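The genes of 8 transcription factors active in the hair matrix were followed through alopecia areata (AA), its treatment and its relapse in mouse skin: Msx1, Msx2, Foxn1, Dlx2, Dlx3, Gata3, Ovol1 and Cux1. They are a list of named genes, found by their GENCODE M21 symbol among the 39017 Ensembl gene IDs of the count table. All 8 were found, and all 8 are among the 16248 genes that passed the filter on low counts. Msx1 and Dlx2 passed it only through the groups where they are high. Dorsal skin of female C3H/HeJ mice, about 30 weeks old at termination, was sequenced as 24 libraries, 6 in each of 4 groups. The 8w off Tx group is skin of AA mice that were fed the JAK1 inhibitor Cmpd A, near 100 mg/kg daily, for 4 weeks and then left without it for 8 weeks. Systemic JAK1i is skin of AA mice biopsied alive after the 4 weeks of Cmpd A. The AA group is mice with fully developed hair loss, called untreated in the labels although their library names hold the term Vec12w, which the sources used here do not explain, and Healthy is untreated mice without hair loss. AA was brought on by a skin graft, so the groups model an induced disease in 1 inbred strain and 1 sex. By the methods of the study the Systemic JAK1i and 8w off Tx samples come from the same 6 mice, but the library letters A to F do not say which pairs share a mouse, so these groups are not independent animals. Systemic JAK1i skin was taken at week 4 and the other groups at week 12, and treatment cannot be told apart from week or from live against terminal sampling in any comparison with it.

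The hair matrix is the pool of dividing keratinocytes at the base of a growing follicle, wrapped around the dermal papilla. Its cells leave the cycle as they move up and become the layers of the hair shaft and of the inner root sheath that guides it. The matrix exists while the follicle is in anagen, the growth phase, and is taken down when the follicle regresses. Msx1, Msx2, Dlx2 and Dlx3 are homeodomain factors, of which Msx2 and Dlx3 are needed in the mouse for normal shaft formation. Foxn1, the gene mutated in nude mice, drives differentiation of shaft keratinocytes. Gata3 directs the inner root sheath lineage and also acts in interfollicular epidermis, in Th2 cells and in type 2 innate lymphoid cells. Ovol1 is a zinc finger factor that restrains proliferation as epidermal cells mature, and Cux1 is a cut-homeodomain factor of the inner root sheath and its progenitors.

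RefSeq promoters were at hand for 6 of the 8 genes. For Msx2, Gata3 and Cux1 all 250 bases before the RefSeq start lie in annotated GENCODE exons, so these windows are transcribed sequence in that annotation. For Msx1, Foxn1 and Dlx2 the 250 bases hold no annotated exon. The latter 3 are shown, and no link between their motifs and their levels was tested. They are read 5′ to 3′ on the strand of the gene, all on the minus strand (GRCm38.p6 chr5:37824586-37824835 for Msx1, chr11:78386609-78386858 for Foxn1 and chr2:71546755-71547004 for Dlx2), and capitals mark CCAAT or its reverse complement ATTGG, and in Foxn1 also TAATTA, a homeodomain core.
Msx1: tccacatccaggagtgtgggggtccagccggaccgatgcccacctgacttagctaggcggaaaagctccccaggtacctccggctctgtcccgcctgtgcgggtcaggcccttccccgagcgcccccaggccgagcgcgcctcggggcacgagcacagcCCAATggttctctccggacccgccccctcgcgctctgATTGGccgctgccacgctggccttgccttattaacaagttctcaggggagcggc
Foxn1: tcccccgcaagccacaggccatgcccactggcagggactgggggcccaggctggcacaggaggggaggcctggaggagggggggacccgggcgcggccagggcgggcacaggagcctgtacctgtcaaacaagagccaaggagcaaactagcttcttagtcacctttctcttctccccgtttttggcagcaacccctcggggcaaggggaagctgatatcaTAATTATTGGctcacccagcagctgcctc
Dlx2: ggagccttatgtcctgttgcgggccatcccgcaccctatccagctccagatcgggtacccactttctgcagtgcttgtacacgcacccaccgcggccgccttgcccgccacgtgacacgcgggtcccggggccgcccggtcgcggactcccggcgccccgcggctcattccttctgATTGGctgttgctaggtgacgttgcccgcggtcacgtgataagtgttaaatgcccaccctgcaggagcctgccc
CCAAT was found on either strand in 4 of the 6 windows, in Msx1 at 91 and 54 bases before the start, in Msx2 at 124, in Foxn1 at 24 and in Dlx2 at 74, beside 34.5% of 27025 promoter windows of the same length. TAATTA lay at 29 bases before the start in Foxn1, sharing 1 base with ATTGG, and at 187 in Msx2, and 4.9% of all windows hold it. The TATA box TATAAA, the homeodomain variant TAATTG, the GATA motif AGATAA, the LEF motif ATCAAAG and the OVOL motif CCGTTA, also searched on both strands, had no match in the 6 windows. Of all windows 13% hold TATAAA, 7.34% TAATTG, 10.3% AGATAA, 3.23% ATCAAAG and 2.17% CCGTTA. A match describes the letters of the window and no more.

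Library totals ran from 3444193 to 5766105 counts in 8w off Tx, 5559273 to 11233020 in Systemic JAK1i, 3859132 to 8472874 in AA and 3649611 to 6407908 in Healthy skin. Skeletal muscle RNA varied widely between libraries: 8 marker genes summed to 7621 to 35850 CPM, counts scaled to library size, in 8w off Tx, 15583 to 19864 in Systemic JAK1i, 5948 to 16251 in AA and 285 to 20523 in Healthy skin. Keratinocyte markers were present in every group, with 7 basal markers summing to 5916 to 9569, 6625 to 8532, 5451 to 8957 and 5983 to 11083 CPM in 8w off Tx, Systemic JAK1i, AA and Healthy skin.

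The genes differ widely in level. Per gene length, as deposited TPM, transcript abundance scaled by gene length and library, 8w off Tx skin had Gata3 at 57.1 ± 18.4, Cux1 at 23.05 ± 13.2, Dlx3 at 8.78 ± 6.49, Ovol1 at 7.50 ± 3.60, Msx2 at 3.87 ± 2.99, Foxn1 at 2.84 ± 1.69, Msx1 at 1.09 ± 0.817 and Dlx2 at 0.330 ± 0.243 TPM (SD, n = 6). Each neighbour in that order overlapped the next within 1 SD, except Gata3 and Cux1. Systemic JAK1i skin had Gata3 at 84.0 ± 13.2, Cux1 at 24.3 ± 1.62, Ovol1 at 9.66 ± 1.39, Dlx3 at 3.24 ± 0.504, Foxn1 at 1.71 ± 0.228, Msx2 at 1.02 ± 0.368, Msx1 at 0.696 ± 0.0722 and Dlx2 at 0.0585 ± 0.0297 TPM (SD, n = 6), and of these neighbours only Msx2 and Msx1 overlapped within 1 SD. Gata3 was also the most abundant in AA skin at 53.2 ± 18.95 TPM (SD, n = 6), followed by Cux1 at 39.9 ± 17.4, Ovol1 at 14.6 ± 3.33, Dlx3 at 13.7 ± 5.64, Msx2 at 6.61 ± 3.27, Foxn1 at 3.73 ± 1.38, Msx1 at 2.03 ± 0.837 and Dlx2 at 0.687 ± 0.451 TPM. All neighbours there overlapped within 1 SD except Cux1 with Ovol1 and Msx1 with Dlx2. Healthy skin had Gata3 at 83.8 ± 24.9, Cux1 at 18.8 ± 3.01, Ovol1 at 7.73 ± 2.06, Dlx3 at 3.60 ± 0.628, Foxn1 at 1.57 ± 0.357, Msx2 at 1.08 ± 0.324, Msx1 at 0.555 ± 0.339 and Dlx2 at 0.0835 ± 0.0728 TPM (SD, n = 6), where Foxn1 overlapped Msx2 and Msx2 overlapped Msx1 within 1 SD and the other neighbours did not.

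Of the 8 members 7 were higher than in Healthy skin in both alopecic groups, AA and 8w off Tx, and Gata3 was not. From here levels are TMM-normalized CPM from the counts, fold changes and adjusted p come from edgeR's quasi-likelihood test over all 16248 genes, and the words rose and fell are kept for an adjusted p below 0.05. In AA against Healthy skin 7 of 8 members rose and 1 fell, where 20.9% of all genes rose and 19.3% fell. The median log2 fold change of the members was 1.90, against 0.00115 for all genes. In 6 of the 8 every AA library lay above every Healthy library, beside 8.17% of all genes. Systemic JAK1i against AA skin had 7 of 8 lower, where 24.8% of all genes were lower, with a median of -2.33. In all 7 the groups were apart, beside 13.8% of all genes. Systemic JAK1i against Healthy skin gave 0 of 8 called by edgeR, where 1.05% of all genes were called, and Gata3 was the 1 member with an unadjusted p below 0.05. DESeq2 and limma-voom also called 0, and an edgeR fit of only these 2 groups called 1, Dlx3. Off treatment for 8 weeks, 7 of 8 were higher against Healthy skin, where 16.9% of all genes were higher, and Foxn1 and Msx2 had groups apart, beside 4.31% of all genes. All 8 were higher in 8w off Tx against Systemic JAK1i skin, where 19.4% of all genes were higher, and 5 had groups apart, beside 8.77% of all genes. Between 8w off Tx and AA skin 1 of 8 was called, Gata3, which was higher, as were 0.726% of all genes. By the thresholds of the study, an FDR below 0.001 and a change of more than 4-fold, Msx1, Msx2, Dlx2 and Dlx3 passed in AA against Healthy skin, where 2.51% of all genes were higher by them. The same 4 passed in Systemic JAK1i against AA skin, where 2.73% of all genes were lower, and in 8w off Tx against Systemic JAK1i skin, where 1.98% were higher. Msx2 was the 1 member to pass in 8w off Tx against Healthy skin, where 1.65% of all genes were higher. The 6 comparisons share libraries, so these counts are not independent of each other. Msx1 and Dlx2 passed the filter only through the AA and 8w off Tx libraries, where they are high. Their calls against Systemic JAK1i or Healthy skin, counted above, are therefore not independent of the filter. In whole skin, fewer matrix cells and less RNA per cell cannot be told apart.

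**Figure D1:**
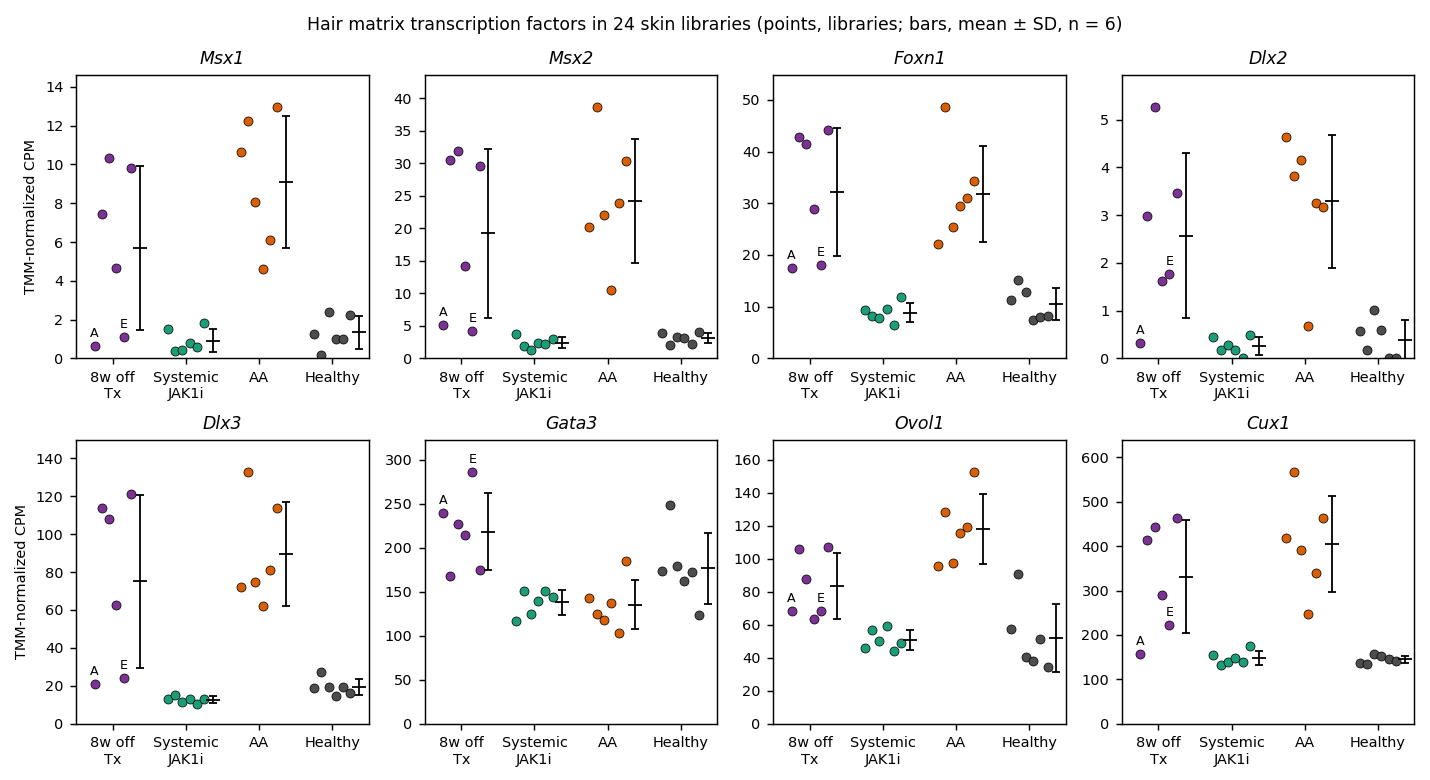
TMM-normalized CPM (vertical axis, from 0, its own scale in each panel) of the 8 genes in each of the 24 libraries, by group, with mean ± SD of 6 libraries, and letters A and E marking these 8w off Tx libraries. Every panel but Gata3 shows most AA libraries above the Systemic JAK1i and Healthy libraries, and Msx2 in 8w off Tx skin is spread from 4.20 to 31.9 CPM.

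Msx1 and Msx2, paralogous homeodomain repressors, were among the members with the greatest change. Msx2 (ENSMUSG00000021469, GRCm38 chr13:53466884-53473074) had 4.20, 21.9 and 31.9 CPM (lowest, median and highest of 6 libraries) in 8w off Tx skin, 1.23, 2.31 and 3.74 CPM in Systemic JAK1i skin, 10.6, 22.96 and 38.6 CPM in AA skin and 2.11, 3.20 and 4.12 CPM in Healthy skin. AA and Healthy libraries did not overlap, and the lowest 8w off Tx library stood just above the highest Healthy one. The log2 fold change was 2.94 ± 0.43 (SE) in AA against Healthy skin (edgeR adjusted p = 1.66e-05), -3.33 ± 0.43 in Systemic JAK1i against AA skin (adjusted p = 3.49e-06) and 2.62 ± 0.43 in 8w off Tx against Healthy skin (adjusted p = 9.61e-05). Systemic JAK1i differed from Healthy skin by -0.39 ± 0.48, with a 95% interval of -1.39 to 0.60 (edgeR adjusted p = 0.734).

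Msx1 (ENSMUSG00000048450, GRCm38 chr5:37820485-37824583) was likewise high in AA skin. It had 0.649, 6.07 and 10.3 CPM in 8w off Tx skin, 0.368, 0.690 and 1.82 CPM in Systemic JAK1i skin, 4.59, 9.36 and 12.96 CPM in AA skin and 0.176, 1.14 and 2.38 CPM in Healthy skin, as lowest, median and highest. The lowest AA library was above the highest Healthy library, while 2 of the 8w off Tx libraries, A and E, were within the Healthy range. These values rest on few reads, 39 counts over all 6 Systemic JAK1i libraries and 46 over the Healthy ones, against 288 in AA. Msx1 rose by a log2 fold change of 2.73 ± 0.54 in AA against Healthy skin (edgeR adjusted p = 0.000239), changed by -3.31 ± 0.55 in Systemic JAK1i against AA skin (adjusted p = 3.16e-05), by 2.09 ± 0.55 in 8w off Tx against Healthy skin (adjusted p = 0.00408) and by 2.67 ± 0.56 in 8w off Tx against Systemic JAK1i skin (adjusted p = 0.000529). In the deposited TPM Msx1 lost its call in 8w off Tx against Systemic JAK1i (0.18, limma adjusted p = 0.732) and against Healthy skin (0.72, adjusted p = 0.183). With TPM scaled to each library's median the Msx1 differences stayed called and were smaller, -1.88 in Systemic JAK1i against AA and 1.17 in 8w off Tx against Systemic JAK1i skin, on the log2(TPM + 0.1) scale. The TPM table gave Msx1 0.605 to 0.813 TPM in the 6 Systemic JAK1i libraries, whose counts ran from 2 to 11.

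Dlx2 and Dlx3, of the distal-less homeodomain family, also rose with AA. Dlx3 (ENSMUSG00000001510, GRCm38 chr11:95120119-95125296) had 20.8, 85.2 and 121 CPM in 8w off Tx skin, 10.5, 12.96 and 15.3 CPM in Systemic JAK1i skin, 62.2, 78.0 and 133 CPM in AA skin and 14.8, 18.99 and 27.1 CPM in Healthy skin. All 6 AA libraries lay above all 12 libraries of Systemic JAK1i and Healthy skin, and 8w off Tx A and E fell within the Healthy range. Its log2 fold change was 2.21 ± 0.33 in AA against Healthy skin (edgeR adjusted p = 2.34e-05), -2.82 ± 0.33 in Systemic JAK1i against AA skin (adjusted p = 1.8e-06) and 1.97 ± 0.33 in 8w off Tx against Healthy skin (adjusted p = 0.000133). Between Systemic JAK1i and Healthy skin it was -0.61 ± 0.34, with a 95% interval of -1.32 to 0.10 (edgeR adjusted p = 0.373), and a fit of these 2 groups alone called that difference (adjusted p = 0.0477).

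Dlx2 (ENSMUSG00000023391, GRCm38 chr2:71543408-71546754) had the lowest TPM of the 8 in each group. It had 0.324, 2.37 and 5.26 CPM in 8w off Tx skin, 0, 0.228 and 0.496 CPM in Systemic JAK1i skin, 0.689, 3.54 and 4.64 CPM in AA skin and 0, 0.372 and 1.02 CPM in Healthy skin. Summed over 6 libraries these are 82, 11, 108 and 14 counts, with 1 Systemic JAK1i and 2 Healthy libraries at 0. The lowest AA library, D, had 3 reads and lay within the Healthy range, so these groups overlap, while AA and Systemic JAK1i skin do not. Dlx2 was 2.95 ± 0.65 higher on the log2 scale in AA against Healthy skin (edgeR adjusted p = 0.000295), -3.61 ± 0.70 in Systemic JAK1i against AA skin (adjusted p = 3.88e-05) and 3.29 ± 0.71 in 8w off Tx against Systemic JAK1i skin (adjusted p = 0.00022). Here too median-scaled TPM gave smaller differences that stayed called, 2.12, -2.35 and 1.79 on the log2(TPM + 0.1) scale.

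Foxn1 (ENSMUSG00000002057, GRCm38 chr11:78357577-78386558) had 17.5, 35.1 and 44.2 CPM in 8w off Tx skin, 6.42, 8.78 and 11.9 CPM in Systemic JAK1i skin, 22.2, 30.2 and 48.6 CPM in AA skin and 7.52, 9.73 and 15.1 CPM in Healthy skin. As in Msx2, 8w off Tx libraries A and E were the 2 lowest of their group and were still above all 12 Systemic JAK1i and Healthy libraries. The means of 8w off Tx and AA skin were close, 32.1 ± 12.4 and 31.8 ± 9.25 CPM (SD, n = 6), a log2 difference of 0.03 ± 0.23 with a 95% interval of -0.46 to 0.51 (edgeR adjusted p = 0.968). Foxn1 rose by 1.59 ± 0.24 on the log2 scale in AA against Healthy skin (edgeR adjusted p = 3.09e-05) and by 1.61 ± 0.24 in 8w off Tx against Healthy skin (adjusted p = 5.05e-05). Under systemic JAK1 inhibition it fell by 1.84 ± 0.24 on the log2 scale against AA skin (edgeR adjusted p = 4.73e-06).

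Cux1 (ENSMUSG00000029705, GRCm38 chr5:136248135-136567490) had 156, 352 and 463 CPM in 8w off Tx skin, 132, 144 and 175 CPM in Systemic JAK1i skin, 248, 405 and 566 CPM in AA skin and 135, 143 and 158 CPM in Healthy skin. Healthy libraries differed little from each other (145 ± 8.81 CPM, SD, n = 6) and the lowest AA library exceeded the highest of them, whereas 8w off Tx A, at 156 CPM, lay inside the Healthy range. The log2 fold change was 1.48 ± 0.20 in AA against Healthy skin (edgeR adjusted p = 9.69e-06), -1.45 ± 0.20 in Systemic JAK1i against AA skin (adjusted p = 8.59e-06) and 1.20 ± 0.20 in 8w off Tx against Healthy skin (adjusted p = 0.000147). Systemic JAK1i and Healthy skin differed by 0.03 ± 0.20, with a 95% interval of -0.39 to 0.45 (edgeR adjusted p = 0.966). Cux1 overlaps the antisense gene Gm16599 in exons, and as the strand setting of the counting is not given in the sources used here, part of its count is uncertain.

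Ovol1 (ENSMUSG00000024922, GRCm38 chr19:5549136-5560646) had 63.6, 78.0 and 107 CPM in 8w off Tx skin, 44.1, 49.5 and 59.3 CPM in Systemic JAK1i skin, 95.5, 117 and 152 CPM in AA skin and 34.6, 45.7 and 90.6 CPM in Healthy skin. Healthy library B, at 90.6 CPM, stood above the other 5 Healthy libraries, which had at most 57.4, and all 8w off Tx libraries lay above all Systemic JAK1i libraries. Ovol1 rose by 1.18 ± 0.19 on the log2 scale in AA against Healthy skin (edgeR adjusted p = 5.02e-05) and by 0.68 ± 0.19 in 8w off Tx against Healthy skin (adjusted p = 0.00863). It fell by 1.21 ± 0.19 in Systemic JAK1i against AA skin (edgeR adjusted p = 2.75e-05) and was 0.72 ± 0.19 higher in 8w off Tx against Systemic JAK1i skin (edgeR adjusted p = 0.00525). Against AA skin 8w off Tx skin differed by -0.50 ± 0.19, which did not pass (edgeR adjusted p = 0.162, unadjusted p = 0.0151), whereas in the deposited TPM it was called lower (-1.05, limma adjusted p = 0.0218), also with a pseudocount of 1 (-0.95, adjusted p = 0.015) and with no filter (-1.05, adjusted p = 0.0411). Ovol1 overlaps Gm31166 and AC126029.1 in exons on the other strand, so its count is uncertain in part as well.

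Gata3 (ENSMUSG00000015619, GRCm38 chr2:9857078-9890034) moved apart from the rest. It had 167, 221 and 285 CPM in 8w off Tx skin, 117, 142 and 151 CPM in Systemic JAK1i skin, 103, 131 and 185 CPM in AA skin and 123, 173 and 248 CPM in Healthy skin. The AA and Healthy ranges overlapped in part: 5 of 6 AA libraries had 103 to 143 CPM and 5 of 6 Healthy libraries 162 to 248 CPM, with AA F at 185 and Healthy F at 123 CPM across, whereas all 6 of the 8w off Tx libraries exceeded all 6 of the Systemic JAK1i libraries. Its difference was -0.38 ± 0.15 in AA against Healthy skin (log2, edgeR adjusted p = 0.044), 0.03 ± 0.15 in Systemic JAK1i against AA skin (adjusted p = 0.899), 0.69 ± 0.15 in 8w off Tx against AA skin (adjusted p = 0.022) and 0.66 ± 0.15 in 8w off Tx against Systemic JAK1i skin (adjusted p = 0.00138). The call in AA skin is borderline: leaving out any 1 of AA A, B, C, D or E or Healthy A, B, C or E ended it, with values of -0.27 to -0.41 and an adjusted p of up to 0.137, without Healthy B, as did the fit of the 2 groups alone (edgeR adjusted p = 0.0708). The higher level in 8w off Tx than in AA skin also lost its call without A and E together (0.53, edgeR adjusted p = 0.133), without 8w off Tx A, D or E singly or AA B or E singly (adjusted p of 0.0517 to 0.0707), with centred TPM (0.65, adjusted p = 0.0996) and in the deposited TPM (0.11, limma adjusted p = 0.717). In that TPM Gata3 passed as higher in Systemic JAK1i against AA skin (0.72, limma adjusted p = 0.0197), as it did with a pseudocount of 1 and with no filter. Against Healthy skin 8w off Tx skin differed by 0.31 ± 0.15 (edgeR adjusted p = 0.117), a difference that passed without Healthy B (0.43, adjusted p = 0.0225) and with limma-voom with quality weights (0.32, adjusted p = 0.0385). The call against Systemic JAK1i skin held without A and E (0.52, edgeR adjusted p = 0.0135). Gata3 shares exons with the antisense gene Gm13256 and with 9230102O04Rik on its own strand, so its count is uncertain in part.

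Because Gata3 is also a gene of lymphoid cells, their markers are set beside it. Of 7 Th2 and type 2 innate lymphoid markers 3 passed the filter, and their sum was 7.78 to 13.5 CPM in 8w off Tx, 8.77 to 13.8 in Systemic JAK1i, 3.70 to 12.8 in AA and 13.5 to 23.3 CPM in Healthy skin. Il4 and Il13 were not among these 3. Il4 averaged 0.494, 1.07, 0.662 and 1.41 CPM and Il13 averaged 1.67, 0.401, 1.84 and 0.369 CPM in the same order of groups. Of the 3 that passed the filter, 2 fell and 1 was not called in AA against Healthy skin, where 19.3% of all genes fell. Gata3 itself was at 103 CPM or more in each of the 24 libraries. All 10 T cell markers were measured, and summed to 46.6 to 136, 22.2 to 46.9, 39.2 to 150 and 26.7 to 53.8 CPM in the same order of groups. The part of lymphoid cells in the Gata3 values was not tested.

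**Figure D2:**
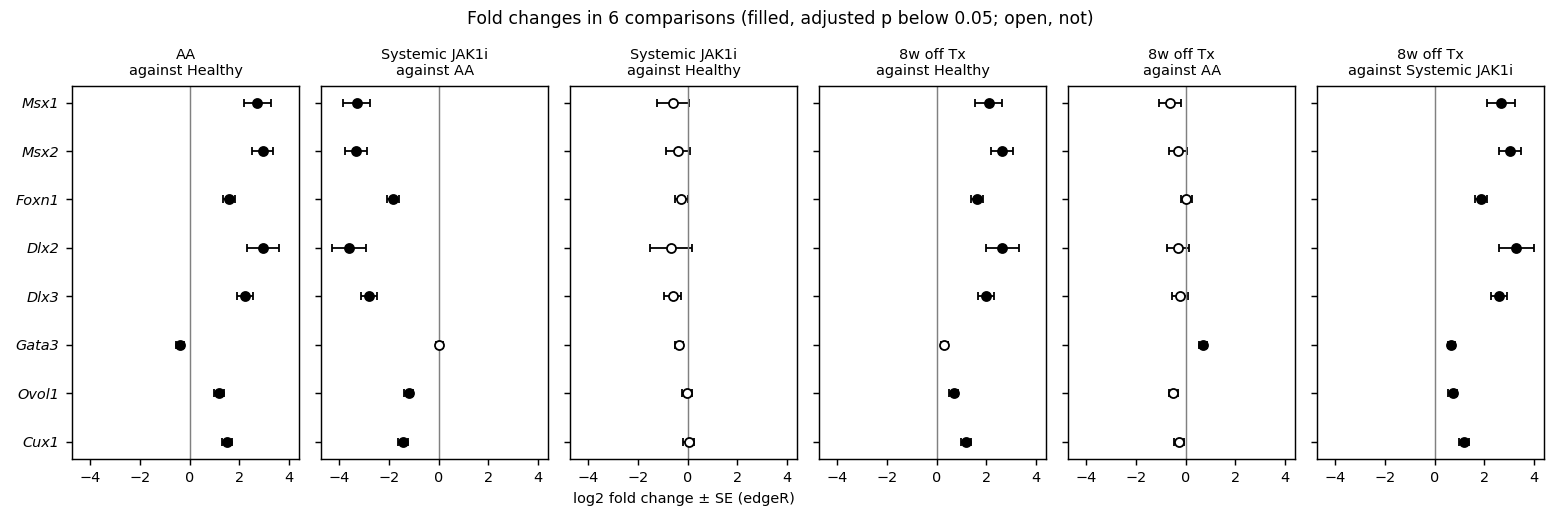
Log2 fold change ± SE from edgeR (horizontal axis) of the 8 genes (rows) in the 6 comparisons (panels), filled where the adjusted p is below 0.05. Except for Gata3, every row lies right of 0 in AA against Healthy skin, left of 0 in Systemic JAK1i against AA skin and right of 0 in both 8w off Tx against Healthy and 8w off Tx against Systemic JAK1i skin.

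The relapsed skin was not uniform. Libraries A and E of the 8w off Tx group had 5.19 and 4.20 CPM of Msx2, where the other 4 had 14.2 to 31.9, and 20.8 and 24.1 CPM of Dlx3, where the other 4 had 62.5 to 121. Cux1 was at 156 and 223 CPM in A and E, and at 290 to 463 CPM in the other 4. Gata3 ran the other way, with its highest values of the group in A and E, 240 and 285 CPM. The same 2 libraries had the highest skeletal muscle sums of all 24, 34098 and 35850 CPM. Their 13 hair shaft keratins summed to 60.3 and 7.30 CPM, where the other 4 had 1449 to 3411. The part of the follicle content in the members' values was not tested. Without A and E the 7 genes other than Gata3 were higher in 8w off Tx against Healthy skin, with Msx2 at 3.05 (edgeR adjusted p = 3.49e-07), Dlx3 at 2.38 (adjusted p = 8.85e-08) and Cux1 at 1.47 (adjusted p = 6.34e-07) on the log2 scale. A and E held the lowest Msx2, Dlx3 and Cux1 values of the group. Leaving them out was therefore bound to widen these differences and is no test of them. With the muscle marker mean as a covariate the count of members called stayed at 7 in that comparison, and also at 8 in AA against Healthy and 7 in Systemic JAK1i against AA skin.

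**Figure D3:**
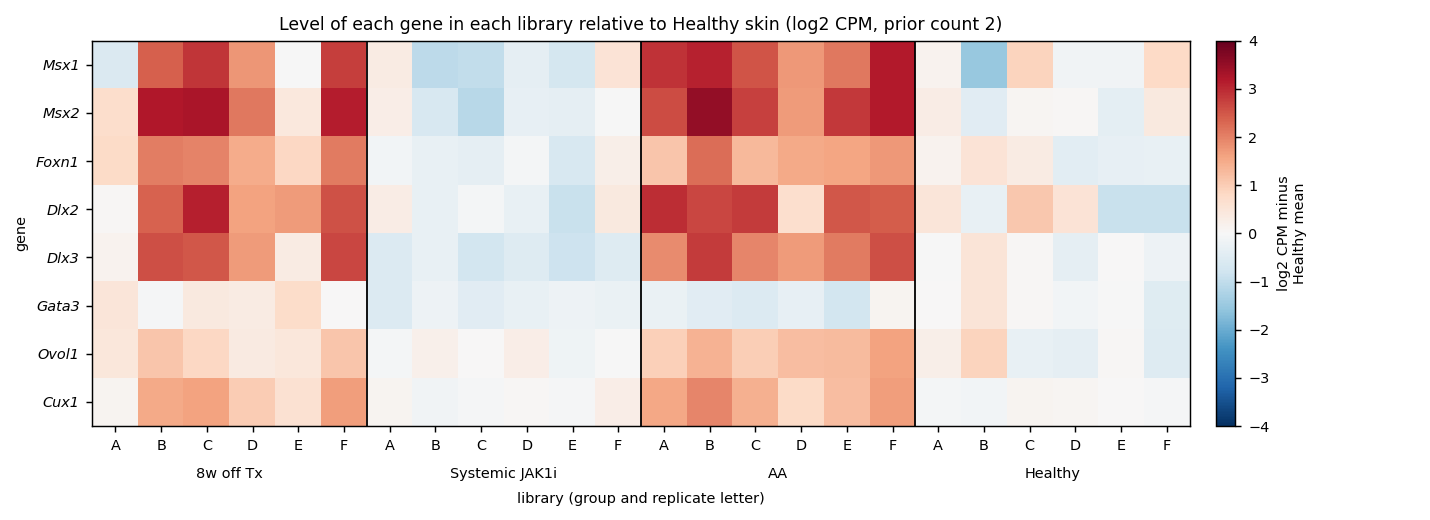
Log2 CPM (prior count 2) minus the mean of the 6 Healthy libraries (colour, blue below and red above) for the 8 genes (rows) in the 24 libraries (columns, by group and replicate letter). The 8w off Tx columns A and E are paler than the other 4 of that group for Msx1, Msx2, Dlx3 and Cux1, and the Gata3 row stays pale throughout.

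The scale of the values changed many of these calls, large differences included. In the deposited TPM, where each library sums to the same total, the median of all genes itself was shifted by -0.80 on the log2 scale in 8w off Tx against Healthy skin and by -1.16 in 8w off Tx against Systemic JAK1i skin, as well as by -0.29 in AA against Healthy, 0.65 in Systemic JAK1i against AA, 0.34 in Systemic JAK1i against Healthy and -0.51 in 8w off Tx against AA skin. On that scale Gata3 was lower in 8w off Tx against Healthy (-0.57, limma adjusted p = 0.0455) and against Systemic JAK1i skin (-0.61, adjusted p = 0.0263), and Ovol1 had -0.13 and -0.48, neither of which passed. Cux1 did not pass on that scale in AA against Healthy (0.97, limma adjusted p = 0.0609), Systemic JAK1i against AA (-0.58, adjusted p = 0.149), 8w off Tx against Healthy (0.05, adjusted p = 0.897) or 8w off Tx against Systemic JAK1i skin (-0.33, adjusted p = 0.374). Dlx3 did not pass in 8w off Tx against Healthy (0.79, limma adjusted p = 0.108) or Systemic JAK1i skin (0.93, adjusted p = 0.0525), nor did Foxn1 (0.59, adjusted p = 0.103, and 0.46, adjusted p = 0.186). Ovol1 missed in Systemic JAK1i against AA skin (-0.57, limma adjusted p = 0.0565). Msx2 and Dlx2 were the 2 members still called higher in both 8w off Tx against Healthy and 8w off Tx against Systemic JAK1i skin with a pseudocount of 0.1. Dlx2 lost both calls with a pseudocount of 1, and with no filter no member passed against Healthy skin. Over all genes, 331 were called higher and 11364 lower in 8w off Tx against Healthy skin in TPM, where the counts gave 2753 and 2558. Relative to the shift of all genes, with TPM divided by the median of each library, the members called higher numbered 7 in 8w off Tx against Healthy and 8 in 8w off Tx against Systemic JAK1i skin.

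Ratios of relatives within a library do not depend on its scaling, though at few counts the 0.5 added to each count lets depth enter. The log2 ratio of Msx2 to Msx1 counts averaged 1.89 ± 0.44 in 8w off Tx, 1.47 ± 0.48 in Systemic JAK1i, 1.39 ± 0.37 in AA and 1.42 ± 0.91 in Healthy skin (SD, n = 6). Dlx3 exceeded Dlx2 by 4.82 ± 0.67, 5.51 ± 1.01, 4.85 ± 0.85 and 5.83 ± 1.53 on the same scale and in the same order of groups. No change of either ratio passed in the 12 comparisons made (two-sided exact permutation tests, adjusted p of at least 0.502, n = 6 libraries a group, smallest possible p 0.00216). Without Healthy library B the Msx2 to Msx1 ratio did pass in 8w off Tx against Healthy skin (0.79, exact permutation test, adjusted p = 0.039). In TPM it passed in Systemic JAK1i against AA (-1.15, exact permutation test, adjusted p = 0.039) and in 8w off Tx against Systemic JAK1i skin (1.11, adjusted p = 0.039). Dlx2 rests on 11 to 108 counts a group, and the difference of its ratio depended on the added count: it was -0.98 in AA against Healthy and -1.01 in 8w off Tx against Healthy skin with 0.5 added, -0.14 and -0.27 with 2 added, and -0.14 and -0.29 in TPM.

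Members of the same families did not all follow. Of 16 paralogs 9 passed the filter. In AA against Healthy skin 2 of these rose and 4 fell, where 20.9% of all genes rose and 19.3% fell. The median log2 fold change of the paralogs was -0.27. Dlx1 rose by 4.51 ± 0.72 on the log2 scale (edgeR adjusted p = 2.57e-06), to 5.83 ± 2.43 CPM in AA skin against 0.223 ± 0.194 CPM in Healthy skin (SD, n = 6). Dlx4 rose as well (2.82 ± 0.82, edgeR adjusted p = 0.00345), and Dlx5, at -0.17 ± 0.39, did not pass (adjusted p = 0.768). Gata2 fell by 2.10 ± 0.27 on the log2 scale in AA against Healthy skin (edgeR adjusted p = 3.8e-06), Ovol2 by 1.60 ± 0.37 (adjusted p = 0.0011), Gata6 by 1.14 ± 0.28 (adjusted p = 0.00251) and Foxn2 by 0.24 ± 0.07 (adjusted p = 0.0122). Ovol1 and Ovol2 thus moved in opposite directions in AA skin, and so did Foxn1 and Foxn2. Systemic JAK1i against AA skin had Gata2, Ovol2, Gata6 and Foxn2 higher and Dlx1 and Dlx4 lower, and edgeR called 0 of 9 paralogs between Systemic JAK1i and Healthy skin, with 2 at an unadjusted p below 0.05. In 8w off Tx against Healthy skin Gata2 was again lower (-1.49 ± 0.26, edgeR adjusted p = 0.00014) and Dlx1 higher (3.58 ± 0.74, adjusted p = 0.000102).

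**Figure D4:**
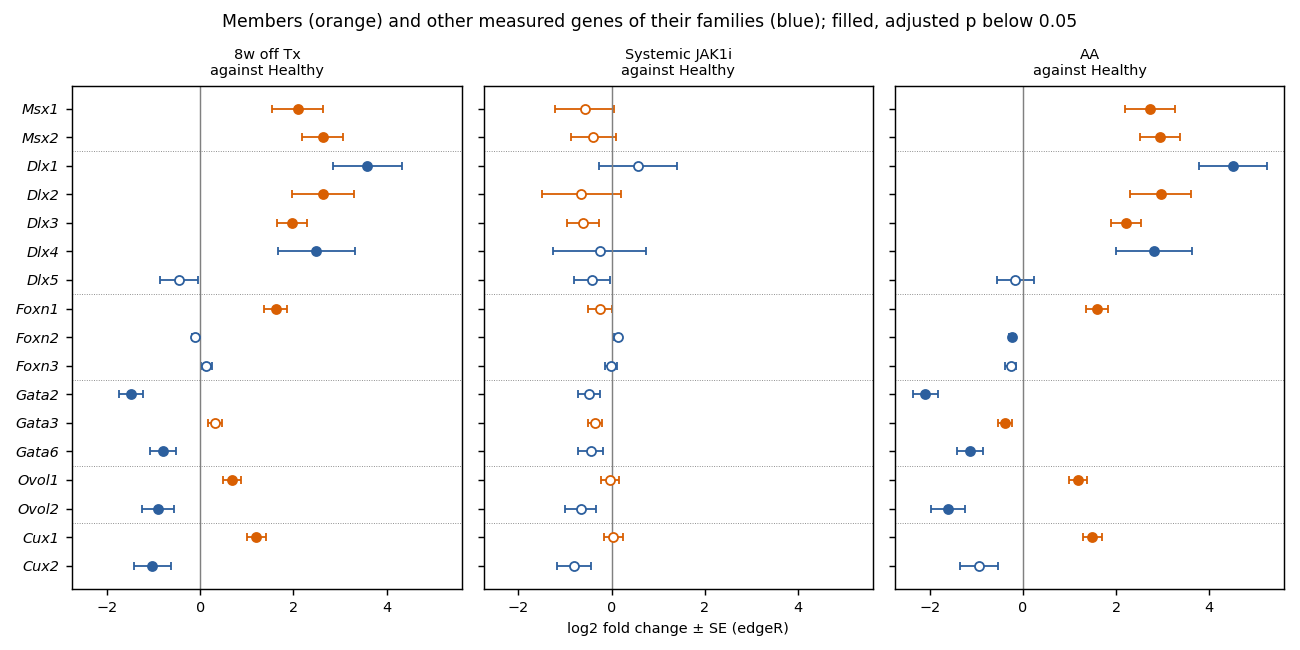
Log2 fold change ± SE from edgeR (horizontal axis) of the members (orange) and of the other measured genes of their families (blue) in 8w off Tx, Systemic JAK1i and AA against Healthy skin, filled where the adjusted p is below 0.05. Dlx1, Dlx2, Dlx3 and Dlx4 lie right of 0 in both alopecic groups, Gata2, Gata6 and Ovol2 lie left of 0, and no point is filled in Systemic JAK1i against Healthy skin.

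Other transcription factors of the follicle were mixed. Of 21 measured, 8 rose and 2 fell in AA against Healthy skin, where 20.9% of all genes rose and 19.3% fell. Their log2 fold changes ran from -1.45 to 4.36, with a median of 0.36. Runx1, a factor of hair follicle stem cell activation, rose by 1.12 ± 0.17 on the log2 scale (edgeR adjusted p = 2.37e-05). Hr, the hairless corepressor, had 0.36 ± 0.17 (edgeR adjusted p = 0.0885) and Bcl11b 0.10 ± 0.16 (adjusted p = 0.652), neither of which passed. Nfatc1, which holds bulge stem cells at rest, fell by 1.45 ± 0.13 (edgeR adjusted p = 1.02e-07), to 40.1 ± 6.49 CPM in AA skin against 110 ± 16.1 CPM in Healthy skin (SD, n = 6). Of 19 signalling genes that act on or in the matrix 9 rose and 4 fell in AA against Healthy skin, beside the same 20.9% and 19.3% of all genes. Shh, the hedgehog ligand made by matrix cells, rose by 4.33 ± 0.72 on the log2 scale (edgeR adjusted p = 6.24e-06), on 211 counts in AA and 10 in Healthy skin, and Wnt5a by 1.20 ± 0.20 (adjusted p = 8.62e-05). Ctnnb1, the gene of beta-catenin, rose by 0.35 ± 0.10 (edgeR adjusted p = 0.00792) and Notch1 by 0.28 ± 0.11 (adjusted p = 0.0449).

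The structural products of the hair shaft and inner root sheath, the layers that grow from the matrix, rose in AA skin too. All 13 measured hair shaft keratins rose in AA against Healthy skin, with a median log2 fold change of 5.86, and so did 9 of 9 inner root sheath genes, with a median of 5.76. Summed, the inner root sheath genes had 54.8, 7928 and 15168 CPM (lowest, median and highest) in 8w off Tx skin, 25.1, 289 and 482 CPM in Systemic JAK1i skin, 5972, 11282 and 17917 CPM in AA skin and 12.1, 102 and 713 CPM in Healthy skin. Cell cycle markers rose in 11 of 12, with a median of 1.20, and fell in 12 of 12 in Systemic JAK1i against AA skin. Of all genes 20.9% rose in AA against Healthy skin and 24.8% fell in Systemic JAK1i against AA skin. In Systemic JAK1i against Healthy skin, where 1.05% of all genes were called, edgeR called none of the keratins, inner root sheath genes or cell cycle markers. The unadjusted edgeR p was below 0.05 for 1 keratin, 0 inner root sheath genes and 1 cell cycle marker. The part of cell number in the members' values was not tested.

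Likeness of pattern is given as Pearson's r of log2 CPM over the 24 libraries, among genes with a mean of at least 1 on that scale, and as a description. Nearest to Msx2 were Procr (r = 0.976), Cux1 (0.968) and Adh6b (0.967), and to Msx1 were Heyl (0.962), Lef1 (0.954) and Msx2 (0.949). Dlx3 was closest to Procr (0.977), St14 (0.977) and Adh6b (0.973), Foxn1 to Rcc2 (0.973), Dlx3 (0.961) and Kdm5c (0.960), and Cux1 to Ctps (0.976), Procr (0.970) and Msx2 (0.968). For Dlx2 they were Cux1 (0.931), Mycn (0.918) and Nhs (0.915), and for Ovol1 Uck2 (0.966), Sfn (0.965) and Zdhhc5 (0.964). Gata3 had lower values, with Klf5 (0.875), Mark2 (0.866) and Ikbke (0.861). Once group means were removed Msx2 and Cux1 still had r = 0.881, whereas Gata3 with Msx2 had -0.466. These libraries share groups, and skin composition and depth vary across them.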

How the data were processed

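Dorsal skin RNA of 24 mouse samples was sequenced after ribosomal depletion (TruSeq Stranded Total RNA, RiboGold, without fragmentation because of low RNA integrity), although the sample descriptions also say PolyA RNA. Per the processing notes of the submitters, reads were aligned with HISAT2 2.0.1 and counted with featureCounts 1.4.4 on GRCm38. For the annotation, the strand setting and multi-mapping reads, settings were not stated in those sources. The authors deposited whole-number counts per gene, not normalized. They also deposited a TPM table, scaled per library and gene length, made by an estimator that is not named in these sources; for scarce genes it and the counts differ. Each of them holds 6 columns that match no sample, which were not used.

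Genes were named by GENCODE M21 (37607 of 39017 IDs). In R 4.3.3, edgeR 4.0.16 was used: filterByExpr with a minimum count of 10 kept 16248 genes, scaled by TMM, with 1 quasi-likelihood fit of the 4 groups and 6 comparisons, Benjamini-Hochberg adjusted over all genes kept. The study used DESeq2, which is an alternative here (version 1.42.0). TPM were tested with limma 3.58.1 on log2(TPM + 0.1). Other alternatives were other scalings and filters, limma-voom, a replicate block, fits of 2 groups, a muscle covariate and leaving out libraries. Ratios used an added count of 0.5 and a two-sided exact permutation test. The edgeR test of AA against Healthy skin was tried on simulated counts, and the other tests and comparisons were not. The simulated counts were independent draws with the spread of the fit itself. Far fewer genes were changed in them than were called here, and skin composition did not vary. The trial therefore does not cover these features of the data. Library totals ran from 3444193 to 11233020 counts, and no 2 libraries of a group agreed within sampling noise. The most alike pair was Healthy A and E, with a chi-square of 3.23 per degree of freedom. The other Healthy pairs had 11.52 to 54.64. Why Healthy A and E are so alike was not tested, and an alternative leaves both out.

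The members and lists were chosen with earlier results of these data known. Besides the 8 members and their measured paralogs, a list gave up to 4 named genes, 2 by adjusted p and 2 by mean CPM in AA against Healthy skin, and the 3 most alike each member. The lists of dermal papilla, melanocyte, adipocyte, sebaceous and suprabasal markers were computed and are given in the closing section. Promoter sequences are from RefSeq on GRCm38.p6.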

Additional observations from a re-analysis of the deposited data

Results flagged for a closer look

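Dlx2 in AA library D was 0.689 CPM, on 3 counts, apart from the other 5 AA libraries, of which the nearest had 3.17 CPM. The gap was 0.629 of the range of the group, over the critical value of 0.625 for 6 samples. It was 1 of 32 groups of values checked, and chance alone marks about 1 in 20.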

How the results depend on the processing

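Of 31 calls of members over the 6 comparisons 28 concern genes other than Gata3, and 0 of these were lost or reversed with another scaling of the counts, filter or count test, the block, the muscle covariate, or without 1 library or the pairs A and E, where a value could be had. Libraries A and E of 8w off Tx were low in several of these genes, so leaving them out cannot test calls that were higher in that group. Uncentred TPM lost or reversed 16 of the 28 and TPM centred on the library median 0. Dlx2 could not be fitted with at least 20 counts in 6 libraries nor, except in 8w off Tx against AA, with only 2 groups, and Msx1 not with only 2 groups in both comparisons of Systemic JAK1i with 8w off Tx or Healthy. The cause of these changes was not tested.

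Members called in 8w off Tx against Healthy numbered 3, 2 and 0 with TPM at pseudocount 0.1, at 1 and with no filter (7 in the counts), and 3, 3 and 3 in 8w off Tx against Systemic JAK1i (8). In 8w off Tx against AA 0 were called with the replicate block, only 2 groups, centred TPM or without 8w off Tx A and E (1), and the 1 called with uncentred TPM was Ovol1, lower, where the counts called Gata3, higher, and in Systemic JAK1i against Healthy 1 with only 2 groups (0). Genes called in AA against Healthy were 2643, 2793 and 2516 with these 3 TPM settings (6533), in 8w off Tx against Healthy 11695, 11400 and 12767 (5311) and in 8w off Tx against Systemic JAK1i 14149, 14071 and 18667 (5841). In 8w off Tx against AA (222) they were 111 with no filter, 18 with 2 groups, 628 with DESeq2, 1015, 1280 and 380 with TPM and 122 without A and E. In Systemic JAK1i against Healthy (170) they were 105 with no filter, 104 with the block, 286 with 2 groups, 602 with DESeq2, 1978 with limma-voom, 376 with TPM at pseudocount 1, 96 centred, 74 unfiltered, 12 without Healthy A and E and 52 with the covariate. Upper-quartile scaling turned the split in AA against Healthy to 2835 higher and 3782 lower, against 3394 and 3139. With TPM at pseudocount 0.1 the genes called higher and lower were 642 and 2001 there, 8555 and 609 in Systemic JAK1i against AA (3718 and 4037 in the counts), 151 and 7 in Systemic JAK1i against Healthy (83 and 87), 331 and 11364 in 8w off Tx against Healthy (2753 and 2558), 9 and 1006 in 8w off Tx against AA (118 and 104) and 229 and 13920 in 8w off Tx against Systemic JAK1i (3144 and 2697).

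Leaving out 1 library gave 7 to 8 members and 5724 to 7110 genes in AA against Healthy, 7 and 7000 to 7774 in Systemic JAK1i against AA, 0 and 49 (without Healthy A) to 704 (without Healthy F) in Systemic JAK1i against Healthy, 7 to 8 and 4514 to 6025 in 8w off Tx against Healthy, 0 to 1 and 68 (without AA B) to 493 (without 8w off Tx B) in 8w off Tx against AA, and 8 and 5074 to 6052 in 8w off Tx against Systemic JAK1i.

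Of 36 pairs with a shared letter 6 had a correlation over 0.1 (-0.237 to 0.414), and in 4 the own letter was best. Between 8w off Tx and Systemic JAK1i skin E with E had 0.383, its best match, and the other letters -0.217 to 0.016. These values cannot decide whether the letters pair the samples, as samples of the same mouse taken 8 weeks apart need not correlate. With the replicate block 7, 7, 0, 7, 0 and 8 members and 6256, 7429, 104, 4951, 148 and 5507 genes were called in AA against Healthy, Systemic JAK1i against AA, Systemic JAK1i against Healthy, 8w off Tx against Healthy, 8w off Tx against AA and 8w off Tx against Systemic JAK1i. Gata3 then had -0.37 in AA against Healthy (edgeR adjusted p = 0.0865) and 0.69 in 8w off Tx against AA (adjusted p = 0.0561).

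Values that changed sign follow, on the log2 scale, with TPM at pseudocount 0.1, at 1 and unfiltered in that order. In 8w off Tx against Healthy Gata3 had -0.57, -0.56 and -0.57 and Ovol1 -0.13, -0.11 and -0.13. In 8w off Tx against Systemic JAK1i Gata3 had -0.61, -0.60 and -0.61, Ovol1 -0.48, -0.42 and -0.48 and Cux1 -0.33, -0.30 and -0.33. Of values that passed in neither setting, Foxn1 in 8w off Tx against AA had -0.55, -0.38 and -0.55, -0.042 centred and -0.016 with the block, and Msx2 and Dlx3 had 0.12 and 0.17 without A and E. In Systemic JAK1i against Healthy Msx1 had 0.54, 0.16 and 0.54 and 0.26 centred, Foxn1 0.13, 0.083 and 0.13, Gata3 0.043, 0.042 and 0.043, and Ovol1 0.35, 0.31 and 0.35, 0.0074 with the block, 0.18 with limma-voom, 0.0036 without Healthy A and E and 0.047 with the covariate. There Cux1 had -0.013 with limma-voom and Msx2 0.014 with the covariate, as Gata3 had -0.037 in Systemic JAK1i against AA. Without 1 library Gata3 ranged from -0.041 to 0.14 in Systemic JAK1i against AA, Ovol1 from -0.13 to 0.20 and Cux1 from -0.025 to 0.062 in Systemic JAK1i against Healthy, and Foxn1 from -0.083 to 0.19 in 8w off Tx against AA.

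The Msx2 to Msx1 ratio changed by 0.18 with an added count of 2 and 0.51 in TPM in AA against Healthy, by -0.12 and -1.15 in Systemic JAK1i against AA, by -0.64 in TPM in Systemic JAK1i against Healthy, by -0.049 in TPM in 8w off Tx against AA and by 1.11 in TPM in 8w off Tx against Systemic JAK1i (exact permutation test, adjusted p = 0.039 for the -1.15 and the 1.11), and the Dlx3 to Dlx2 ratio by -0.039 with an added count of 2 in Systemic JAK1i against AA. Without 1 library the Msx2 to Msx1 ratio ran from -0.23 to 0.30 in AA against Healthy, -0.041 to 0.24 in Systemic JAK1i against AA, -0.15 to 0.38 in Systemic JAK1i against Healthy, 0.27 to 0.79 in 8w off Tx against Healthy (0.79 without Healthy B, adjusted p = 0.039 by the exact permutation test), 0.33 to 0.61 in 8w off Tx against AA and 0.25 to 0.54 in 8w off Tx against Systemic JAK1i. The Dlx3 to Dlx2 ratio ran from -1.32 to -0.63, 0.32 to 0.94, -0.66 to 0.026, -1.35 to -0.66, -0.21 to 0.25 and -0.89 to -0.35 in the same order.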

Other observations

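Markers of other compartments of the skin are set beside the calls over all genes. In AA against Healthy skin 20.9% of all genes rose and 19.3% fell. In Systemic JAK1i against AA skin 3718 of 16248 genes were higher. All 5 adipocyte markers fell in AA against Healthy skin (median log2 fold change -1.84 by edgeR) and 5 of 5 were higher in Systemic JAK1i against AA skin (median 2.48). All 5 melanocyte markers rose in AA against Healthy skin, with a median of 2.00, and their sum was 18.8 to 184 CPM in 8w off Tx, 61.6 to 83.2 in Systemic JAK1i, 33.0 to 281 in AA and 18.4 to 65.6 CPM in Healthy skin. Of 4 sebaceous gland markers 1 rose and 2 fell in AA against Healthy skin, and 3 were higher in Systemic JAK1i against AA skin. Of 7 measured dermal papilla markers 3 rose and 1 fell in AA against Healthy skin, with a median of 0.73, and of 7 suprabasal epidermis markers 2 rose and 2 fell. The sebaceous, dermal papilla and suprabasal lists are short and went both ways. Their counts are not read as a change of these compartments.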
